A study of Homo sapiens with 4 samples.

Results

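SIRT1-deficient and wild-type human embryonic stem cells were compared before differentiation, at day 0, in the cells of each library that carried POU5F1 RNA. POU5F1 encodes OCT4, the transcription factor that defines the pluripotent state. A cell was kept where its barcode held at least 4000 unique molecular identifiers (UMIs, each counting 1 captured RNA molecule), at least 1000 genes and at most 20% mitochondrially encoded UMIs. It also needed at least 3 POU5F1 UMIs and no UMI of COL1A1, COL3A1, LUM, COL2A1 or LHX1, genes of mesenchymal, cartilage and mesodermal cells. These rules left 2257 wild-type and 4321 knockout cells, 6578 of the 12808 day 0 cells that passed the filters on depth and of 22599 such cells in all 4 libraries. The levels of POU5F1 and of the 5 other genes chose the cells, so the cells were selected on these measured values, which are given only as a description.

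SIRT1 is a deacetylase that uses NAD+ and removes acetyl groups from histones and from transcription factors such as p53, FOXO proteins and HIF subunits. Through these substrates it is known to link the metabolic state of a cell to glucose and lipid metabolism and to stress responses. Embryonic stem cells of the human type grow as an epithelium, depend on glycolysis, and are held in the primed pluripotent state by OCT4, SOX2 and NANOG together with FGF and NODAL signalling.

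The cells were of H9, an established human embryonic stem cell line. The groups were named Wild Type and Sirtuin 1 deletion, each sampled at day 0, before a protocol that leads towards dopaminergic neurons, and on day 6 of it, with 1 library per group. All were cultured on Geltrex in mTeSR1 medium, released with TrypLE and passed through a strainer before droplet capture with a 10x Chromium kit that reads transcript 3′ ends. The part of SIRT1 that was deleted, whether the knockout line is 1 clone, and whether the cultures were handled in parallel are not given in the sources used here. With 1 library per group no test between conditions was possible and none was run. Intervals below are exact 95% intervals that cover counting error only, so they compare 2 libraries and not 2 genotypes.

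The pluripotency markers were present in both libraries. After each cell was thinned at random to 4000 UMIs, so that cells of unlike depth could be compared, 12 of 12 markers of primed pluripotent cells, POU5F1 included by the rule, were detected in over 1% of cells in either library. They passed 50% of cells for 8 markers in wild type and 7 in the knockout. Markers of other lineages summed to less than those of primed pluripotent cells, and their part in the results was not tested. In wild type and the knockout, 9 and 10 of the neural progenitor markers and 9 and 9 of the mesenchymal ones also passed 1% of cells. TUBB3 was found in 31.9% and 40.4% of thinned cells, NES in 26.9% and 26.9%, PTN in 22.3% and 31.1% and SOX9 in 12.4% and 17.5%. NANOG was found in 17.7% and 16.1%. The 21 neural progenitor markers summed to 317 UMIs per 1000000 (counts scaled to the library's total, CPM) in wild type against 371 CPM in the knockout, and the 18 mesodermal markers to 58.7 and 66.3 CPM. The 18 mesenchymal markers, which include the gate genes, gave 311 and 359 CPM, most of it THY1, a surface protein that pluripotent cells also carry. The 14 endodermal, 13 neural crest and 19 amnion, trophectoderm and surface ectoderm markers gave 21.1 and 18.8, 127 and 124, and 35.5 and 29.1 CPM. SOX17, TTR, TBX20, NEUROG2, KRT5, KRT14, TP63, CGA and CGB5 had 0 UMIs in both libraries.

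Both libraries differed in depth and in what the gate removed. Gated cells had a median of 11977 UMIs and 3841 genes in wild type and of 8064 UMIs and 3022 genes in the knockout, and 18 barcodes occurred in both libraries. Median POU5F1 was 10 and 8 UMIs. Just below the limit, 82 wild-type and 213 knockout cells had 2 POU5F1 UMIs, while 123 and 384 cells had 3. Among cells with enough POU5F1, a UMI of the other genes removed 57.4% of wild-type and 36.9% of knockout cells, mostly through COL1A1. COL1A1 stood at 69.5 and 59.9 CPM in those cells and at 71.1 and 78.1 CPM in free RNA, taken from barcodes of 1 to 50 UMIs. Its level in the cells thus did not exceed that in free RNA. COL3A1, by contrast, stood at 0.0279 and 2.13 CPM in those cells against 4.34 and 6.55 CPM in free RNA. How much of the COL1A1 in cells came from free RNA was not tested. The gate was also read on POU5F1 alone, an alternative chosen after seeing these data, and results that moved are given with it. A further difference between the libraries lies on chromosome 20, whose genes were lower in the knockout as a block. It is described with its values below, and chromosome 20 genes are named as such where they occur.

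SIRT1 (ENSG00000096717, chr10:67884669-67918390, plus strand) had 852 UMIs in the gated wild-type cells and 273 in the gated knockout cells. That is 30.5 CPM against 6.93 CPM, 4.39-fold lower in the knockout (3.83 to 5.05). At 4000 UMIs per cell, 11.8% of wild-type cells (10.5 to 13.2) and 2.73% of knockout cells (2.27 to 3.26) carried a SIRT1 UMI, and without thinning 30.1% and 5.95% did. Free RNA at an assumed 10% of each cell's UMIs, a share that was not estimated, would give 1.33% and 0.634%. SIRT1 reads remained in the library labelled knockout, and because 3′ reads need not lie in the deleted part they do not show whether protein was made. At day 6, over all cells that passed the filters, SIRT1 was at 30.2 CPM in wild type against 9.95 CPM in the knockout, 3.04-fold lower.

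Most of the transcriptome was at like levels in both libraries. Of 9072 genes that reached 10 CPM in 1 library, 146 (1.61%) were called higher in the knockout and 178 (1.96%) lower, 324 (3.57%) in all. A gene was called where its CPM differed by at least 1.5-fold and the interval of the ratio left out 1. At 2-fold 36 were higher and 41 lower. The median log2 ratio, knockout over wild type, was 0.01, and the central span from the 5th to the 95th percentile ran from -0.40 to 0.39. The plot of ratio against level shows this narrow band, with the strongest reductions among genes of low level. Scaling with edgeR's TMM factors moved the median to 0.05 and the calls to 179 higher and 153 lower, so the higher share of calls went from 45.1% to 53.9%.

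**Figure D1:**
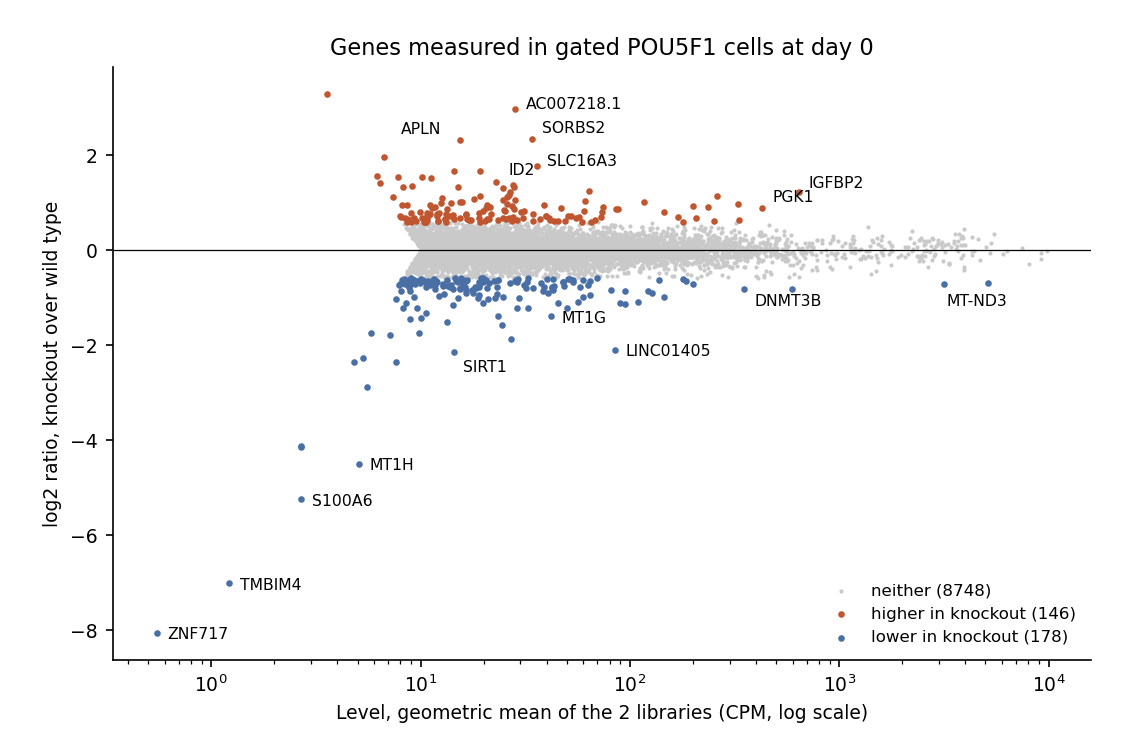
Each point is 1 of 9072 measured genes in gated POU5F1 cells at day 0. The x axis is the geometric mean of both libraries in CPM (log scale) and the y axis the log2 ratio of knockout over wild type. 146 genes in red were called higher and 178 in blue lower, and the lowest points, ZNF717 and TMBIM4, lie below -7.

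Genes of the hypoxia response formed the list with the most higher members for its size. Of 29 measured genes of a list of hypoxia response genes outside glycolysis, 16 were called higher and 0 lower, and their median log2 ratio was 0.64 against 0.01 over all measured genes. This list and the others were chosen with earlier results of these data known, so a list's direction is not independent evidence. PFKFB4, which makes the glycolysis activator fructose 2,6-bisphosphate, was at 8.11 CPM in wild type against 25.7 CPM in the knockout, 3.17-fold higher (2.74 to 3.67). MIR210HG, the host transcript of the hypoxia microRNA miR-210, was at 6.58 and 18.99 CPM, 2.89-fold higher (2.45 to 3.41). INSIG2, an endoplasmic reticulum protein that retains the sterol sensor, stood at 17.2 CPM in wild type against 44.6 CPM in the knockout, 2.60-fold higher (2.35 to 2.88). ANKRD37, an ankyrin repeat protein, gave 5.68 and 14.5 CPM, and STC1, a secreted glycoprotein, 15.7 and 38.9 CPM. The other called members, named after their values were seen, were BNIP3, KDM3A, FAM162A, EGLN1, RORA, P4HA1, PFKFB3, PLOD2, HILPDA, MXI1 and SLC2A1, with log2 ratios from 0.62 (SLC2A1) to 1.14 (BNIP3). They include a mitophagy receptor (BNIP3), a histone demethylase (KDM3A), the oxygen sensor that marks HIF for destruction (EGLN1), collagen-modifying enzymes (P4HA1, PLOD2) and the main glucose transporter (SLC2A1). Some of the best known targets were not called. VEGFA had a log2 ratio of -0.01, ADM of -0.12 and EGLN3 of 0.06, and HIF1A, the oxygen-regulated subunit itself, of -0.24.

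The promoters of INSIG2 and MIR210HG are shown because both transcripts were among the higher members and both hold the short core that HIF binds. The sequences are the 250 bases before the RefSeq start site on GRCh38.p14, written 5′ to 3′ on the strand of the gene, and capitals mark ACGTG or GCGTG on either strand. INSIG2 lies on the plus strand (chr2:118088221-118088470) and MIR210HG on the minus strand (chr11:568458-568707), and each window had 2 such places.
INSIG2: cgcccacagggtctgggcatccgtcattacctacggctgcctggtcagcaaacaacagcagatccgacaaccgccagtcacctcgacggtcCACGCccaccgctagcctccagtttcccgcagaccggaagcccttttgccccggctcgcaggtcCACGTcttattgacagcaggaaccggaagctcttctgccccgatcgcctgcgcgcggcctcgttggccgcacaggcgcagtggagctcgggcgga
MIR210HG: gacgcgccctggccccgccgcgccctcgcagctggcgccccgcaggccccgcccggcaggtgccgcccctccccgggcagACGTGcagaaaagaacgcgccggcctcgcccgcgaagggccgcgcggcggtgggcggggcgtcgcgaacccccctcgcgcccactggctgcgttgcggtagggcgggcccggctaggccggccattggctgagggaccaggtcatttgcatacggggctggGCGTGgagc
The core is common, since 43.1% of 27305 promoters of this length held at least 1 and 16.3% held at least 2. Of the 16 higher list members, 14 had a promoter in the RefSeq table and 11 of these held the core, while 6 of the 10 tabulated members that were not called did. A match describes letters in this window and is not a binding site.

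Of 28 measured genes of glycolysis and lactate handling, 8 were called higher, 0 lower and 20 neither. A positive log2 ratio was found in 25 of them, and the median was 0.45. SLC16A3, the lactate exporter MCT4, was at 19.4 CPM in wild type against 66.6 CPM in the knockout, 3.43-fold higher (3.12 to 3.77). HK2, a hexokinase that takes glucose into the pathway, was at 26.4 and 45.0 CPM, 1.70-fold higher (1.56 to 1.86). PGK1, an enzyme that makes ATP late in glycolysis, was at 313 and 580 CPM, 1.85-fold higher (1.81 to 1.90). The lists share PFKFB3, PFKFB4 and SLC2A1. Nuclear genes of oxidative metabolism did not stand apart from all measured genes, of which 3.57% were called in either direction. Of 26 genes of the tricarboxylic acid cycle and beta oxidation 0 were called, with a median of 0.01. Of 75 measured nuclear genes of oxidative phosphorylation 0 were higher and 1 was lower, ATP5F1E on chromosome 20, with a median of -0.06. Among 13 mitochondrially encoded genes 3 were lower, MT-ND3 (6503 and 4037 CPM), MT-ATP8 (68.0 and 42.5 CPM) and MT-ND4L (232 and 148 CPM), and the list's median was -0.22. Summed per thinned cell, these genes had a 10th percentile of 137 UMIs in wild type and 83 in the knockout. The medians were 218 and 195 and the 90th percentiles 299 and 291, so the lower end differed most. MT-ND6, the light-strand gene, had a log2 ratio of 0.43.

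Of 26 measured genes of cholesterol synthesis and uptake, 8 were called higher, 0 lower and 18 neither. A positive log2 ratio was found in 25 of them, and the median was 0.42. Among the knockout cells whose share of chromosome 20 RNA was like that of wild type, 3 of the 8 were called, with a median of 0.34 over the list. INSIG1, the feedback partner of INSIG2, was at 17.7 CPM in wild type against 39.4 CPM in the knockout, 2.23-fold higher (2.01 to 2.47). STARD4, a sterol carrier, was at 19.8 and 37.6 CPM. HMGCS1, which makes the precursor of mevalonate, was at 54.1 and 102 CPM, 1.89-fold higher (1.78 to 2.01). The list counts INSIG2, which also stands in the hypoxia list. Fatty acid genes reached the threshold in 0 of 16 cases, yet 16 of 16 had a positive log2 ratio, with a median of 0.25. FASN, the fatty acid synthase, was at 183 and 261 CPM, and SCD, the stearoyl desaturase, at 224 and 311 CPM. In the plot of 12 gene lists these 4 metabolic lists have the highest medians.

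**Figure D2:**
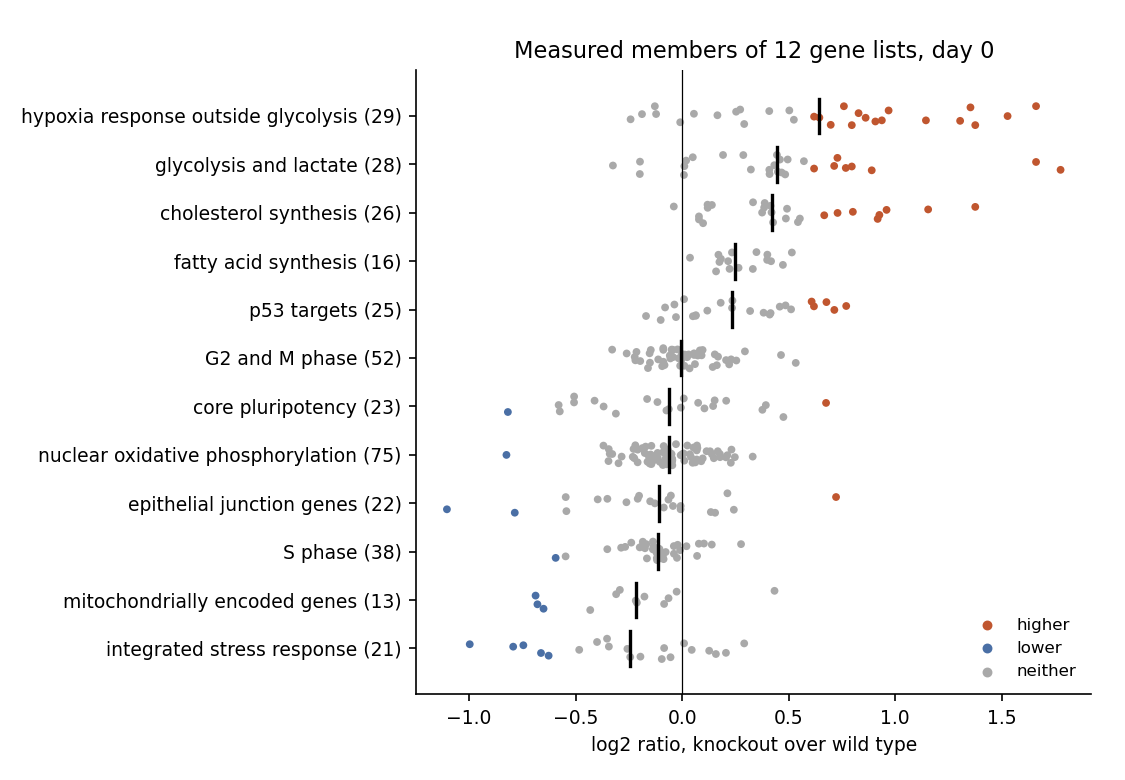
Each point is a measured member of 1 of 12 lists, with the number of members in brackets, and the x axis is the log2 ratio of knockout over wild type at day 0. Bars are medians, which run from 0.64 for the hypoxia list to -0.24 for the integrated stress response, and red and blue mark members called higher and lower.

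Counted cell by cell, the hypoxia and glycolysis sums had an upper tail in both libraries, which held a larger share of the knockout cells. The 35 hypoxia genes summed to 5.58 ± 4.07 UMIs of 4000 per wild-type cell (SD over 2257 cells) and to 8.70 ± 5.54 per knockout cell (SD over 4321 cells), with medians of 5 and 7. The distributions overlapped. The 10th percentiles were 2 and 3 UMIs and the 90th percentiles 10 and 17. Above 10 UMIs, the 90th percentile of wild type, lay 9.13% of wild-type and 32.4% of knockout cells. These are called hypoxia-high cells here, a range cut from a sum and not a cell type. Their mean hypoxia sum was 15.3 UMIs in wild type and 15.4 in the knockout, means bounded from below by the cut itself. In the other cells the mean was 4.61 UMIs in wild type and 5.51 in the knockout. Glycolysis genes summed to 41.5 ± 10.9 and 54.2 ± 16.3 UMIs per cell, and 9.84% and 41.7% of cells exceeded the 90th percentile of wild type. Without the genes of the hypoxia list, the wild-type 90th percentile of glycolysis was 53 UMIs. It was exceeded in 83.2% of the hypoxia-high knockout cells and in 20.9% of the other knockout cells. The corresponding shares in wild type were 56.8% and 4.53%. The glycolysis genes also differed outside the hypoxia-high cells, at 38.9 UMIs per cell in wild type and 46.1 in the knockout. Cholesterol genes moved as a shift of the whole distribution, from a median of 5 to 7 UMIs, and 6.38% and 21.2% of cells exceeded the 90th percentile of wild type. In the knockout 30.1% of hypoxia-high cells and 14.8% of the others were above that limit for cholesterol genes without INSIG2.

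**Figure D3:**
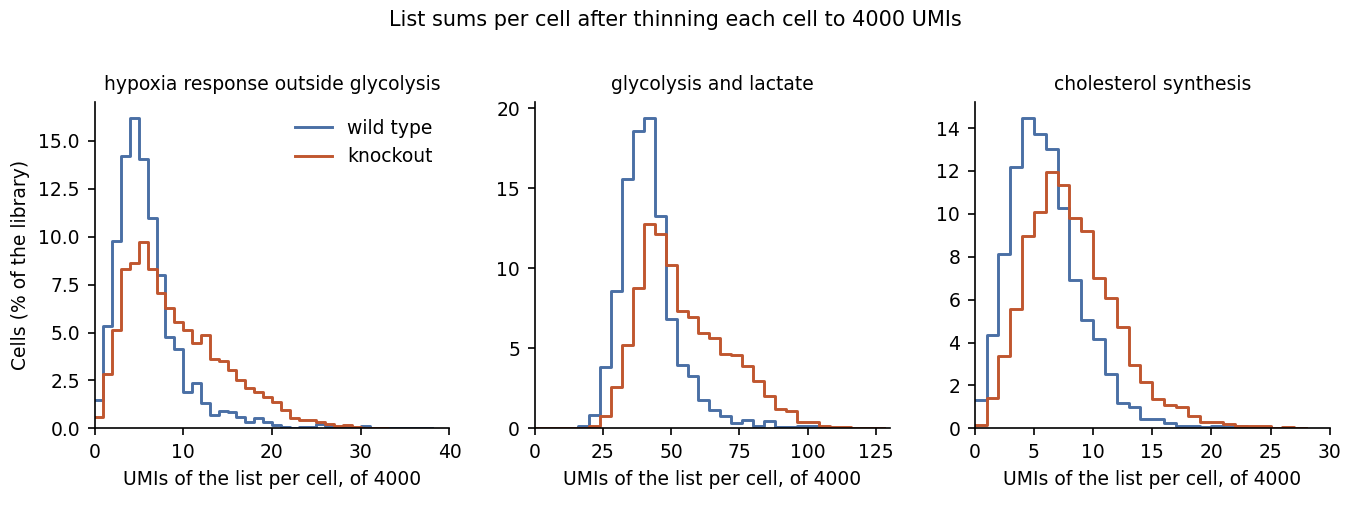
Share of gated cells (y axis, % of the library) by the number of UMIs that a list's genes had in a cell thinned to 4000 UMIs (x axis), for 3 lists. Wild type is in blue and knockout in red. The hypoxia and glycolysis curves of both have an upper tail, with a larger share of the knockout cells in it. The cholesterol curve of the knockout is displaced as a whole.

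Ligands and receptors of vasoactive peptides were among the genes with the largest ratios. APLN, the peptide apelin, had 192 UMIs in wild type and 1354 in the knockout, or 6.86 and 34.4 CPM, 5.01-fold higher (4.30 to 5.86). EDNRB, a receptor for endothelins, was at 10.9 and 34.4 CPM, 3.17-fold higher (2.79 to 3.598). These 2 were the called members among 4 measured genes of apelin and endothelin signalling. APELA, the other ligand of the apelin receptor, was at 24.3 and 26.6 CPM, and ECE1, the enzyme that matures endothelin, at 18.1 and 19.1 CPM. IGFBP2, which binds insulin-like growth factors outside the cell, was at 419 and 975.3 CPM, 2.33-fold higher (2.28 to 2.38). It was found in 73.5% of thinned wild-type and 88.6% of thinned knockout cells, with 2.42 and 4.67 UMIs in a cell that had any. Both measures rise with a gene's mean level, so they are not separate results. IGFBP4, of the same family, was 1.51-fold lower at 85.3 and 56.5 CPM.

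AC007218.1, a long intergenic RNA (chr16:9666885-9676843, minus strand), had the highest ratio of the genes named by level, with 10.1 CPM in wild type against 79.9 CPM in the knockout, 7.90-fold higher (6.99 to 8.95). It was detected in 3.99% of wild-type (3.22 to 4.88) and 25.7% of knockout cells (24.4 to 27.0). SORBS2, an adaptor of the actin cytoskeleton, was at 15.1 and 76.5 CPM, 5.07-fold higher (4.58 to 5.63), and in 5.76% and 23.9% of cells. RND3, a small GTPase that loosens actin fibres, was at 17.7 and 44.7 CPM. VIM, the intermediate filament vimentin, was at 236 and 460 CPM, and FLNA, the actin crosslinker filamin A, at 267 and 417 CPM. SORBS2, VIM and FLNA were the 3 higher members among 20 measured genes of YAP targets and the cytoskeleton, whose median was -0.05. ID2, an inhibitor of helix-loop-helix factors, was at 13.9 and 37.8 CPM, 2.72-fold higher (2.43 to 3.05). TMEM88, a membrane inhibitor of WNT signalling, gave 9.51 and 24.1 CPM. CYP26A1, which degrades retinoic acid, was at 12.9 and 28.7 CPM, 2.22-fold higher (1.97 to 2.51). LDOC1, on the X chromosome, was at 17.4 and 40.8 CPM.

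Core pluripotency genes were at similar levels as a group. Of 23 measured genes, POU5F1 included, 1 was higher and 1 lower, and the median log2 ratio was -0.06. SOX2 was at 247 CPM in wild type against 248 CPM in the knockout and was found in 61.6% and 61.7% of thinned cells. NANOG was at 47.7 and 45.7 CPM. DNMT3B, the de novo DNA methyltransferase of primed cells, lies on chromosome 20 and was the lower member, at 468 and 266 CPM, 1.76-fold lower (1.72 to 1.81). Its thinned detection was 82.3% and 61.8%. TDGF1, the NODAL co-receptor, and L1TD1, an RNA-binding protein, came close to the threshold, both 1.49-fold lower, with 61.9% and 45.4% and 93.8% and 85.4% of cells. With POU5F1 alone as the gate 3 genes of the list were lower in place of 1. Naive pluripotency genes reached 10 CPM in 0 of 16 cases.

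Few epithelial genes were called, though most lay below wild type. Of 22 measured junction genes 2 were called lower and 1 higher, 5 had a positive log2 ratio, and the median was -0.11. Their sum per thinned cell was 10.1 ± 3.67 UMIs in wild type (SD over 2257 cells) and 8.99 ± 3.45 in the knockout (SD over 4321 cells). CLDN7, a tight junction claudin, was lower at 66.8 and 31.1 CPM, and CDH3, P-cadherin, was lower at 24.2 and 14.02 CPM. CDH2, N-cadherin, was higher at 31.0 and 51.1 CPM, 1.65-fold (1.52 to 1.79). CDH1, E-cadherin, stood at 87.2 and 59.7 CPM and EPCAM at 263 and 180.5 CPM, each 1.46-fold lower and not called. These junction results differed with the share of chromosome 20 RNA in knockout cells. Where that share was like wild type, the list's sum per thinned cell was 9.94 UMIs, against 8.69 in the other knockout cells. In the former cells 0 of 23 measured junction genes were called in either direction, with a median of -0.04. For genes of cell division the result depended on the depth of the cells compared. Over all gated cells 0 of 52 measured G2 and M phase genes were called in either direction, with a median of 0.00. In cells of 8000 to 12000 UMIs in both libraries 11 of 52 were called higher and 0 lower, with a median of 0.17, where 282 of 9154 genes in all were higher and the median was 0.04. They included CDK1, the kinase that drives entry into mitosis, at 49.4 CPM in wild type against 128 CPM in the knockout in these cells, a log2 ratio of 1.38 in place of 0.46. TOP2A, the mitotic topoisomerase, had a log2 ratio of 0.66 in place of 0.09, and MKI67, the proliferation antigen Ki-67, of 0.67 in place of 0.23. With a minimum of 8000 UMIs per cell and no maximum, 2 genes of the list were higher. The window of 8000 to 12000 UMIs took unlike parts of the libraries, the less deep wild-type cells and the deeper knockout cells. Lower and upper quartiles of depth were 9853 and 14477 UMIs in wild type and 6600 and 10289 UMIs in the knockout. Whether the choice of window itself moved the G2 and M phase genes was not tested. Of 38 S phase genes 1 was lower, TIPIN, a replication fork protein, at 23.9 and 15.9 CPM. It was not called with TMM scaling or with POU5F1 alone as the gate.

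**Figure D4:**
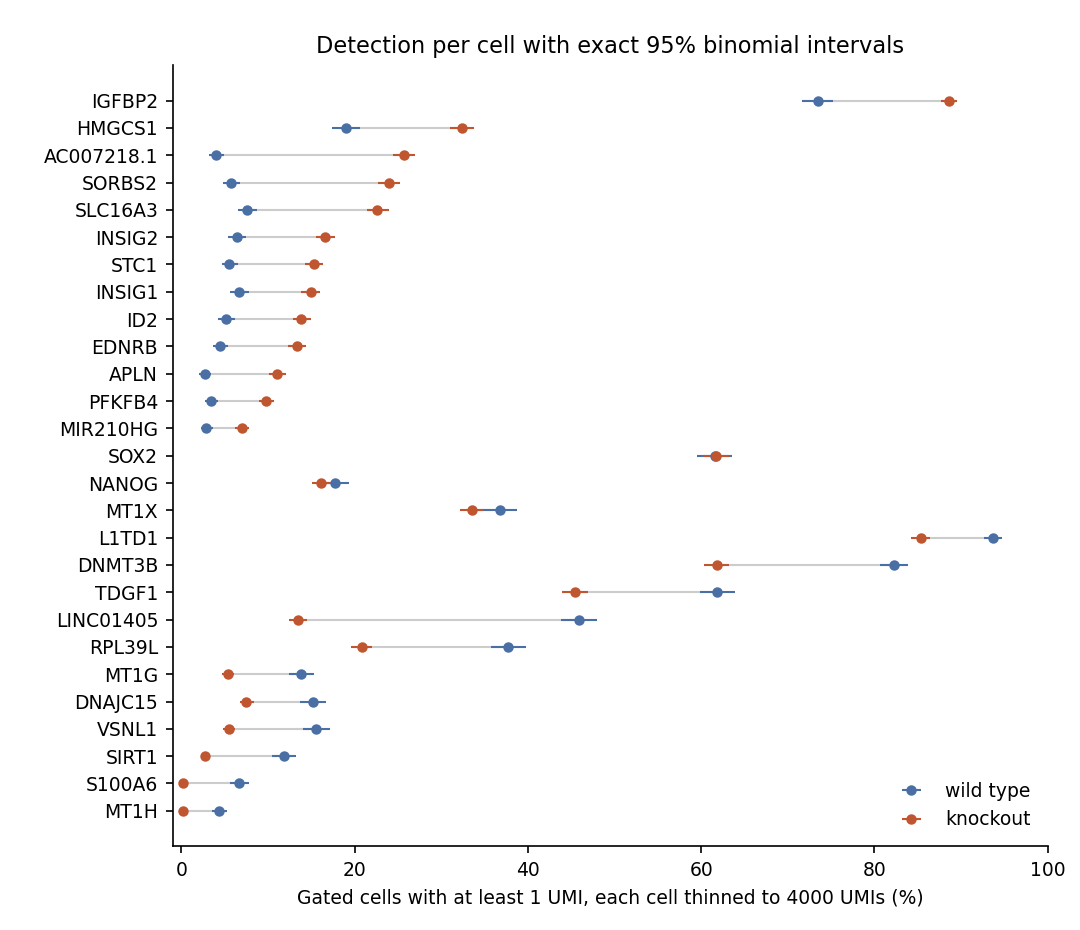
Share of gated cells with at least 1 UMI of each of 27 genes after every cell was thinned to 4000 UMIs (x axis, %), with exact 95% binomial intervals. Wild type is in blue and knockout in red. The points of SOX2 (61.6% and 61.7%) and NANOG (17.7% and 16.1%) lie close together, and the distances of other genes run in both directions.

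The lowest ratio among the genes named by level was that of a metallothionein. MT1H, a small protein that binds zinc and copper, had 680 UMIs in wild type and 42 in the knockout, or 24.3 and 1.07 CPM, 22.8-fold lower (16.7 to 31.9). MT1G, its neighbour on chromosome 16, was at 68.1 and 25.9 CPM, 2.63-fold lower (2.43 to 2.84). The other metallothioneins did not follow. MT1X was at 184 and 175 CPM, MT1E at 60.8 and 62.7 CPM, MT1F at 27.9 and 29.8 CPM and MT2A at 110 and 120 CPM. MTF1, the zinc-sensing factor that drives these genes, was at 14.4 and 17.2 CPM. In thinned cells MT1H was seen in 4.30% of wild-type cells (3.50 to 5.22) and 0.162% of knockout cells (0.0652 to 0.333), and MT1G in 13.8% and 5.32%. Members of this family are near copies of one another, and counts can be split between them.

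The MT1H and MT1X promoters are shown because both hold several copies of the core that MTF1 binds, while MT1H was called lower and MT1X was not. Both windows are the 250 bases before the RefSeq start on the plus strand of GRCh38.p14, MT1H at chr16:56669564-56669813 and MT1X at chr16:56682220-56682469. Capitals mark TGCACNC or TGCGCNC on either strand, 8 places in MT1H and 4 in MT1X.
MT1H: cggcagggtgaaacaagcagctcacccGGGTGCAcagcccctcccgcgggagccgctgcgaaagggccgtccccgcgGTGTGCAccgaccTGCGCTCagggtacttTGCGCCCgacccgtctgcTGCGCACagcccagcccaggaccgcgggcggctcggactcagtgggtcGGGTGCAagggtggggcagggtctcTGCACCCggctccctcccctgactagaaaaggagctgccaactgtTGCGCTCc
MT1X: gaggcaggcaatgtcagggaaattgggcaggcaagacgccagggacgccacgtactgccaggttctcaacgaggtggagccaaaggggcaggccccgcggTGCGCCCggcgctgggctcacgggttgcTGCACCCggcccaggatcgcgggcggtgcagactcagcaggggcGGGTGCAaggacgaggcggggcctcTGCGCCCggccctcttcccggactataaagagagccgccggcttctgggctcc
Of 27305 promoters 24.7% held at least 1 such place, 0.220% at least 4, and 0.0183%, or 5 promoters, at least 8. The table gave 7 places for MT2A and 0 for MTF1.

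Long RNAs and genes of several other roles made up the rest of the lowest ratios. LINC01405 was at 176 CPM in wild type against 40.8 CPM in the knockout, 4.30-fold lower (4.07 to 4.55), and in 45.9% and 13.5% of thinned cells. LINC01356 was at 52.1 and 14.2 CPM. VSNL1, a neuronal calcium sensor, was at 42.3 and 14.2 CPM, 2.97-fold lower (2.68 to 3.29). SLFN13, an RNA-cleaving protein, was at 22.8 and 7.95 CPM, and ZNF433-AS1, an antisense RNA, at 37.9 and 14.6 CPM. Mitochondrial proteins in this set were DNAJC15, a co-chaperone of protein import, at 44.0 and 19.1 CPM, NGRN, needed for mitochondrial ribosomes, at 141 and 63.9 CPM, and THEM4, a thioesterase, at 21.2 and 9.55 CPM. RPL39L, a near copy of the ribosomal protein gene RPL39, was at 132 and 60.7 CPM, 2.17-fold lower (2.06 to 2.28), and ZNF141 at 29.2 and 13.6 CPM. ID1, on chromosome 20, was at 75.9 and 32.8 CPM, against the higher ID2, while ID3 was at 188 and 176 CPM. COL1A2, at 50.0 and 21.4 CPM, is the partner chain of COL1A1, which the gate used, and without the gate its log2 ratio went from -1.23 to -0.79.

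Stress pathways went in different directions. Of 25 measured p53 targets 5 were higher and 0 lower, with a median of 0.24. They were BTG2, an antiproliferative factor (12.6 and 21.5 CPM), TP53INP1 (9.40 and 15.4 CPM), SESN1, an inhibitor of mTORC1 (20.9 and 33.4 CPM), CDKN1A, the cell cycle inhibitor p21 (39.6 and 60.8 CPM), and ZMAT3 (28.0 and 42.7 CPM). With POU5F1 alone as the gate 2 genes of the list were called, with the gate read on thinned cells 1, and in cells of 8000 to 12000 UMIs 8. Of 21 measured genes of the integrated stress response 5 were lower and 0 higher, with a median of -0.24. They were TRIB3 (21.3 and 10.7 CPM) and CEBPB (55.7 and 32.1 CPM), both on chromosome 20, the amino acid transporters SLC7A5 (62.7 and 37.4 CPM) and SLC7A11 (40.4 and 25.5 CPM), and DDIT3, the transcription factor CHOP (24.7 and 15.997 CPM). With each cell thinned to 4000 UMIs, so that cells weigh alike, 3 were lower, and in cells of 8000 to 12000 UMIs 4 were, with a median of -0.11. HMOX1, the heme oxygenase of the NRF2 response, was 1.97-fold lower at 35.0 and 17.7 CPM. Of the other sirtuins only SIRT5 and SIRT7 reached 10 CPM, and neither was called. Of 10 measured sirtuin and NAD genes SIRT1 and NAPRT, which makes NAD from nicotinic acid (23.8 and 15.1 CPM), were lower, and NAMPT, the main NAD salvage enzyme, was at 79.7 and 90.3 CPM. FOXO, autophagy and lysosome genes were called in 0 of 20 cases and apoptosis regulators in 0 of 14. With 3.57% of all measured genes called, such counts do not set these lists apart.

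A small set of genes was present in one library and almost lacking in the other. Among 14229 genes with at least 50 UMIs in 1 library, 31 were over 10-fold lower in the knockout and 3 over 10-fold higher. ZNF717, a zinc finger gene, had 283 UMIs in wild type and 1 in the knockout, 398-fold lower with a counting interval from 70.9 upwards, and 290 and 1 at day 6. TMBIM4, a Golgi membrane protein, had 411 and 4 UMIs before differentiation and 829 and 9 on day 6. ZNF717, TMBIM4, PCDHB5 and MIR924HG lie between 10 and 20 CPM in wild type and were named after their values were seen. CYP2R1, a vitamin D hydroxylase, had 185 and 1 UMIs, and TMLHE, the first enzyme of carnitine synthesis, 163 and 1. CABYR, a calcium-binding protein of the sperm tail, had 78 and 0 UMIs, at least 36.6-fold lower when the knockout library is set to a floor of 3 counts, while its counting interval starts at 29.1-fold. CGAS, the sensor of cytosolic DNA, had 91 and 3 UMIs. TNFRSF8, the receptor CD30, had 143 and 2, LRRC34 196 and 6, MAOA, a monoamine oxidase, 124 and 12, PCDHB5, a clustered protocadherin, 315 and 25, and MIR924HG 320 and 25. CFLAR, an inhibitor of caspase 8, had 94 and 8 UMIs. Many of these differences were also present in the separate day 6 libraries. Of all 31 genes, with no minimum level at day 6 and libraries without a UMI set to the floor of 3 counts, 22 were again over 10-fold lower. The other 9 were 1.82- to 7.40-fold lower. The smallest of these differences was that of GNA14, with 64 and 1 UMIs at day 0 but 20 and 14 at day 6.

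S100A6, a calcium-binding protein, had 470 UMIs in wild type and 17 in the knockout, or 16.8 and 0.432 CPM, 38.9-fold lower (24.04 to 67.4). In free RNA of the knockout library it stood at 300 CPM, and at 10% of each cell's UMIs that RNA would put S100A6 into 11.3% of thinned cells, yet it was found in 0.162%. Its neighbour S100A4 was 1.52-fold lower at 53.2 and 34.9 CPM. The 3 genes over 10-fold higher had few UMIs. OLIG3, a neural transcription factor, had 2 and 66 UMIs (23.4-fold, 6.24 to 198), and FOXB2, a forkhead factor, 1 and 55. H3.Y, a primate histone H3 variant, had 0 and 60 UMIs, at least 14.2-fold higher at the same floor with a counting interval from 11.2-fold, and its knockout UMIs lay in 0.162% of unthinned cells. The size of these ratios moved with the gate. The log2 ratio of OLIG3 was 4.24 here, 2.81 with POU5F1 alone and 2.89 with the gate read on thinned cells, and that of H3.Y went from 6.43 to 1.84 with the latter, so both fell short of 10-fold there. In cells of 8000 to 12000 UMIs the log2 ratios of OLIG3, FOXB2 and H3.Y were 2.88, 3.04 and 2.51. At day 6 the H3.Y order was turned, with 325 UMIs in wild type and 14 in the knockout.

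Genes of chromosome 20 were lower in the knockout as a block. Its 280 measured genes had a median log2 ratio of -0.34, 92.9% of them were negative, and 39 (13.9%) were called lower and 0 higher. On the other chromosomes the medians ran from -0.04 to 0.07, as the plot by chromosome shows. The difference covered the whole chromosome, with medians from -0.28 to -0.53 in 10 Mb windows. Without chromosome 20, 139 of 8792 genes were lower (1.58%) and 146 higher (1.66%). At day 6 the chromosome's median was -0.14 against 0.25 over all genes. On the X chromosome 20 of 335 genes were higher (5.97%), with a median of 0.07. DNA copy number was not measured here.

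**Figure D5:**
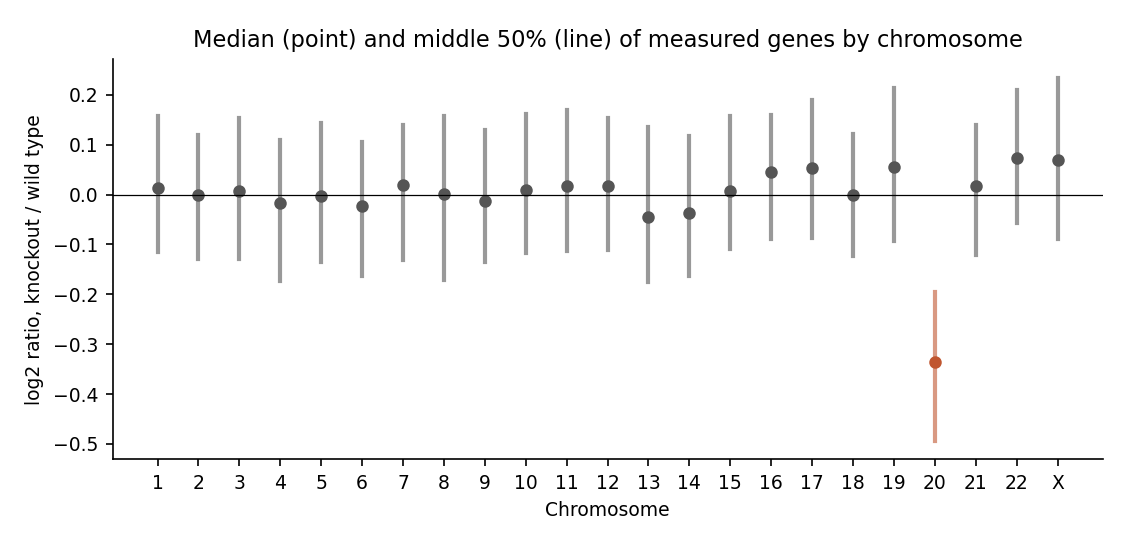
Median log2 ratio of knockout over wild type (points) and middle 50% (lines) of the measured genes of each chromosome at day 0. Chromosome 20, in red, has a median of -0.34, and the others lie between -0.04 and 0.07.

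Cells of the knockout library were not uniform in this respect. Chromosome 20 genes other than those of ribosomal proteins held a median of 3.19% of a wild-type cell's UMIs and 2.31% of a knockout cell's. In 1017 knockout cells (23.5%) the share was at least 2.90%, the 10th percentile of wild type. The median depth of these 1017 cells was 8375 UMIs and that of the 3304 others 7987 UMIs, and both had 8 POU5F1 UMIs. This choice raises chromosome 20 genes by construction, so the single genes compared are those of other chromosomes, while counts and lists include chromosome 20. Against wild type the 1017 cells had 116 genes higher and 160 lower, 71 and 93 of them among the calls made with all knockout cells.

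The hypoxia and glycolysis sums were above wild type in both kinds of knockout cells. The hypoxia sum per cell was 5.58 UMIs in wild type, 8.18 in the 1017 knockout cells and 8.86 in the others, and the glycolysis sum was 41.5, 51.4 and 55.1. In the 1017 cells 12 of the 16 hypoxia genes and 8 of the 8 glycolysis genes called with all knockout cells were again called higher, but 3 of the 8 cholesterol genes. A single glycolysis gene was called lower in them, MPC1, a subunit of the mitochondrial pyruvate carrier named after its values were seen, at 17.6 CPM in wild type against 10.9 CPM in these cells. APLN had a log2 ratio of 2.57 in place of 2.32, MIR210HG 1.45 in place of 1.53 and SLC16A3 1.61 in place of 1.78. Several other genes were close to wild type in these cells. RND3 stood at 0.41 in place of 1.34, VIM at 0.33 in place of 0.96, CLDN7 at -0.17 in place of -1.10, and DDIT3 at -0.07 in place of -0.63. ZNF433-AS1 was at -0.26 in place of -1.38, and LINC01405 kept part of its difference at -1.22 in place of -2.10. SLFN13 and RPL39L differed more from wild type in these cells, at -2.82 in place of -1.52 and -1.79 in place of -1.12. Of the integrated stress response list 0 genes were called lower in them, and the median was -0.05 in place of -0.24. What else distinguishes these cells from the other knockout cells was not tested.

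The day 6 libraries, which took no part in choosing the day 0 cells, gave a second reading of the day 0 calls. In them 1521 of 8723 measured genes were higher in the knockout (17.4%) and 380 lower (4.36%), with a median log2 ratio of 0.25 over all genes, so values are read against that shift. Of the 146 genes higher at day 0, 129 were measured at day 6, where 62 were higher (48.1%) and 7 lower (5.43%), with a median of 0.56. Of the 178 lower genes, 107 were measured, 38 were lower (35.5%) and 10 higher (9.35%), with a median of -0.31. Among hypoxia genes 12 of 29 were higher at day 6 and 0 lower, with a median of 0.40. Glycolysis genes did not stand apart from all genes there, with 5 of 27 higher, 0 lower and a median of 0.30. MIR210HG was at 3.403 and 17.3 CPM there, 5.09-fold higher, INSIG2 at 43.0 and 104.8 CPM, and PGK1 at 755 and 1321 CPM. Of cholesterol genes 6 of 26 were higher, not far above the 17.4% of all genes, with a median of 0.50. LINC01405 was again lower at 193 and 39.98 CPM, 4.83-fold. Other day 0 differences were small at day 6 or turned. EDNRB was at 45.7 and 38.8 CPM and AC007218.1 at 0.428 and 0.459 CPM. Among p53 targets 1 of 24 was higher and 8 were lower, with a median of -0.50. Fewer cells of a type and less RNA per cell cannot be told apart at day 6, where all cells were summed.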

How the data were processed

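Single-cell RNA was read from 3′ ends in 4 libraries, 1 per genotype and day. The deposited files held unnormalised UMI counts of 36601 features for each barcode. The counts were made by the authors with Cell Ranger 6.1.2 against GRCh38, per the submitters' processing notes, with an annotation version not given in the sources used here. Every barcode was deposited, so cells were called by the fixed limits given with the results. The gated cells held 27977863 UMIs in wild type and 39381829 in the knockout. Doublets were kept, and an alternative left out the 5% of cells with most UMIs.

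Counts were summed per library and scaled to 1000000 UMIs (CPM). Ratios have exact conditional binomial (Clopper-Pearson) 95% intervals, shares exact binomial ones, and both cover counting error only. Log2 ratios used a prior count of 0.5. A count of 0 was set to 3 counts per library for bounds. Detection per cell was read after random thinning to 4000 UMIs. Free RNA came from barcodes of 1 to 50 UMIs, at an assumed 10% of a cell's UMIs. The share was not estimated, and S100A6 in knockout cells was far below what it would give. Positions came from GENCODE release 29, which matched 34616 features.

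Named genes were the 15 highest and 15 lowest ratios among genes at 20 CPM or more, SIRT1, up to 5 members with the largest ratios per list (all members of lists with at most 12 measured), and genes over 10-fold apart. A few of these are not reported here. The members and the 46 lists were chosen with earlier results of these data known. Counts for 9072 genes were simulated with counting error only, the error that the intervals assume, and with changes of at least 2-fold. Of 200 changed genes 100% were recovered, and intervals held the true ratio in 95.1% of genes. This checks the computation alone, since differences between cells or cultures were not simulated. In all, 23 alternatives were run, among them edgeR's TMM scaling. Tools were Python 3.11.15, numpy 2.4.6, scipy 1.17.1, pandas 2.3.3, R 4.3.3 and edgeR 4.0.16.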

Additional observations from a re-analysis of the deposited data

Results flagged for a closer look

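For 7 named genes the knockout was called to one side of wild type at day 0 and to the other side at day 6. The difference between the days was not tested, since there was 1 library per group, and day 0 values are of gated cells while day 6 values are of all cells that passed the filters. Called higher at day 0 and lower at day 6 were APLN (log2 ratio 2.32 and -1.34), SORBS2 (2.34 and -0.70), CDKN1A, the inhibitor p21 (0.62 and -2.08), ZMAT3, another p53 target (0.61 and -0.98), and ANXA2, a membrane-binding annexin (0.61 and -1.60). Called lower at day 0 and higher at day 6 were FABP7, a fatty acid carrier of neural progenitors (-1.02 and 2.57), and TIPIN (-0.59 and 0.71). ANXA2 was not called at day 0 with POU5F1 alone as the gate or with the gate read on thinned cells. Over the alternatives its day 0 log2 ratio fell as low as 0.11. CDKN1A in wild type stood at 39.6 CPM at day 0 and 292 CPM at day 6, and in the knockout at 60.8 and 68.9 CPM. FABP7 stood at 29.99 and 20.4 CPM in wild type and at 14.8 and 121 CPM in the knockout.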

How the results depend on the processing

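The called counts were 146 higher and 178 lower. They became 575 and 1135 with no minimum level, 40 and 44 with a minimum of 50 CPM, and 36 and 41 at 2-fold. In cells of 8000 to 12000 UMIs, a window that took unlike parts of the libraries, 282 genes were higher. All other alternatives run kept both counts within 1.5 times. The SIRT1 log2 ratio of -2.13 became -2.34 with free RNA subtracted and -1.92 in cells of 8000 to 12000 UMIs. None of 5274 values of 293 named genes under alternatives reversed a called direction, though 2-fold calls, other minimum levels and left-out chromosomes were not run gene by gene. Of the calls, 117 higher and 152 lower genes were shared with the gate on POU5F1 alone, and 117 and 154 with the gate read on thinned cells. Depth limits what genes of low level show per cell, since median cells held 11977 and 8064 UMIs. Leaving out a replicate could not be done with 1 library per group. No paired analysis was possible because each group has 1 library and no result comes from a test.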

Other observations

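Other signalling genes differed little at day 0. Of 12 measured Notch genes JAG2, a Notch ligand, was called higher at 6.18 CPM in wild type against 10.2 CPM in the knockout, while HES1, a Notch target, stood at 30.7 and 41.2 CPM without a call. FGF and ERK feedback genes were called in 0 of 16 cases, with a median log2 ratio of 0.13, and the phosphatase DUSP6 was at 364 and 476 CPM. Immediate early genes were called in 0 of 12 cases and imprinted genes in 0 of 14. These counts, like that of the FGF genes, lie near the 3.57% called among all measured genes. TET1, which oxidises methylated cytosine, stood at 114 and 158 CPM, not called, beside the lower DNMT3B. MT-ND6, on the other strand of the mitochondrial genome than most of its genes, was above wild type (271 and 366 CPM) where MT-ND3 was below it.

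Some called genes lay side by side. Among measured genes in order along the chromosomes, 23 neighbouring pairs were called in the same direction. MT1G and MT1H, S100A6 and S100A4, and PCDHB2 and PCDHB5 were lower, and KDM6B and TMEM88, STC1 and NEFM, and FLNA and EMD were higher. PCDHB2, KDM6B, NEFM and EMD were named after their values were seen. Whether such pairs are more frequent than elsewhere was not tested.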
